A study of Mus musculus with 6 samples.

Results

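The BCL2 family decides whether a cell keeps its mitochondria intact or dies by the intrinsic route of apoptosis, and 10 of its genes were followed here in cultured mouse erythroblasts. They were chosen by symbol as the members most often studied in blood cells, and all 10 were listed in every table, among 17060 genes listed in at least 1 culture. Lineage-negative bone marrow (BM) cells, the fraction left after cells with mature blood cell markers are removed, were taken from WT mice (C57BL/6 for the study's drug screen) and grown with EPO (erythropoietin), the hormone that drives red cell production. The DMSO group received only the solvent and the NUP-17d group received NUP-17d, a small-molecule inhibitor of Plek2 (pleckstrin-2), at 10 μM, both for 48 hours. Each group held 3 cultures, all without any engineered allele, and messenger RNA was sequenced in bulk. No label says whether the 3 cultures came from separate mice, so p-values measure only the spread between cultures, which may be technical.

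The family has 3 kinds of members. Survival members (Bcl2, Bcl2l1, which encodes BCL-XL, and Mcl1) hold the pore-forming members (Bax and Bak1) in check at the outer mitochondrial membrane. BH3-only members (Bcl2l11, or BIM; Bbc3, or PUMA; Pmaip1, or NOXA; Bid; and Bad) bind the survival members or activate the pore-forming ones, after which cytochrome c leaves the mitochondria and caspases are switched on. In the erythroid lineage EPO acts through its receptor, JAK2 and STAT5, and Bcl2l1 is a well-known STAT5 target on which late erythroblasts depend. The question was how the RNA of the survival and death members stood in NUP-17d cultures against DMSO cultures.

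Depth was even, with library totals of 20278433 to 20419018 expected counts (estimates of the reads from each gene) in the DMSO group and 20076409 to 20170197 in the NUP-17d group. The cells are labelled erythroblasts, and 14 of 14 erythroid markers were present, with hemoglobin RNA taking 18.3% to 20.3% of the counts with DMSO and 11.8% to 13.1% with NUP-17d. All 14 erythroid markers were lower with NUP-17d, with a median log2 fold change of -0.70. Markers of other lineages were present as well (S100a9 and Mpo of neutrophils, Lyz2 of macrophages, Pf4 of megakaryocytes), so the cultures were mixed. In bulk RNA, fewer cells of a type and less RNA per cell cannot be told apart.

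Bcl2l1 was by far the most abundant member in both groups. Levels are given on the FPKM scale (fragments per kilobase of transcript, scaled to the library total), on which genes can be compared. With DMSO the level of Bcl2l1 averaged 309 ± 3.79 (SD, n = 3). Its mean over all 6 cultures was higher than that of 98.3% of the genes tested. Bbc3 came next at 137 ± 4.87, above every other death member, and Bax followed at 67.7 ± 0.478. Mcl1 (56.7 ± 2.64) and Bak1 (52.2 ± 1.83) were neighbours whose ranges overlapped with DMSO. Bid stood at 15.5 ± 0.907 FPKM and Bad at 8.98 ± 0.520. The 3 lowest levels were those of Bcl2l11 at 5.08 ± 0.491, Bcl2 at 2.86 ± 0.0404 and Pmaip1 at 2.41 ± 0.222. The order of the mean levels was the same with NUP-17d, where Bcl2l1 averaged 239 ± 6.05 FPKM, Bbc3 122 ± 3.93 and Bax 95.1 ± 6.04. Bcl2, the gene that names the family, was thus close to the bottom of the list in both groups.

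**Figure D1:**
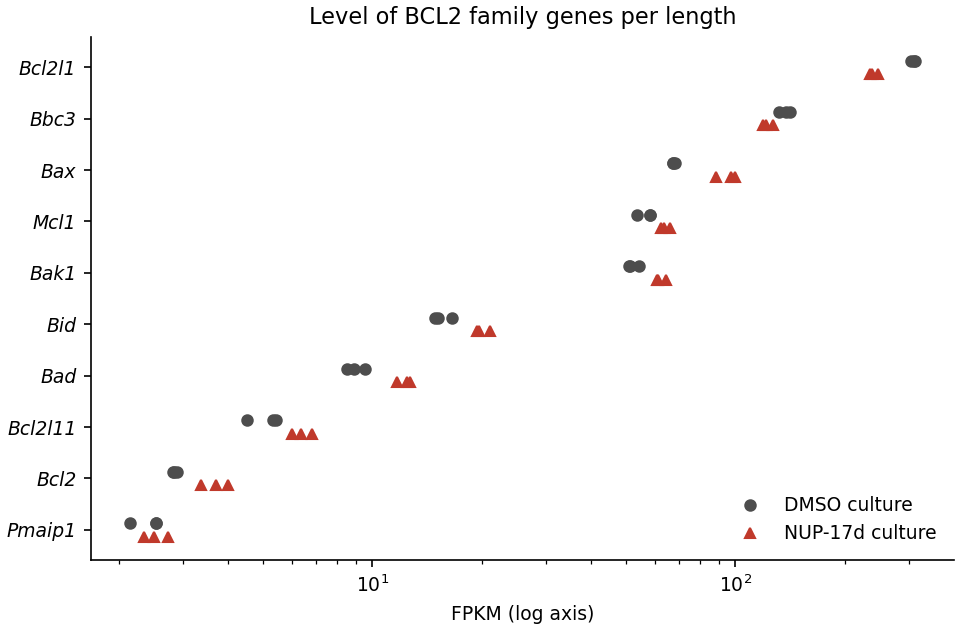
Level of each BCL2 family gene in FPKM (horizontal log axis), with 1 circle per DMSO culture and 1 triangle per NUP-17d culture, ordered by the DMSO mean. The levels run from 2.41 for Pmaip1 to 309 for Bcl2l1 with DMSO, and NUP-17d lies to the left of DMSO for Bcl2l1 and Bbc3 but to the right for Bax.

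Between the groups, 5 of the 10 members passed edgeR's quasi-likelihood test at an adjusted p of 0.05, and all 10 were abundant enough to be tested. Among all 12306 genes tested, 35.3% passed, with 16.4% higher and 18.9% lower in NUP-17d cultures. Bax and Bad were higher, and Bcl2l1, Bbc3 and Mcl1 were lower, Mcl1 not under every scaling. DESeq2 called 4 members, 1 higher and 3 lower, and 25.6% of all genes (10.4% higher, 15.3% lower). The median log2 fold change was 0.02 over the members and 0.01 over all tested genes. Levels per culture did not overlap between the groups for 5 members, against 46% of all tested genes. On the FPKM scale, which has no correction for composition, 9 members did not overlap, against 75.3% of all tested genes. Little can be read from such counts over 10 genes, and what follows concerns the single members. Group comparisons below use CPM, counts scaled to a common library size, normalized by TMM, the edgeR scaling that allows for a change in library composition.

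**Figure D2:**
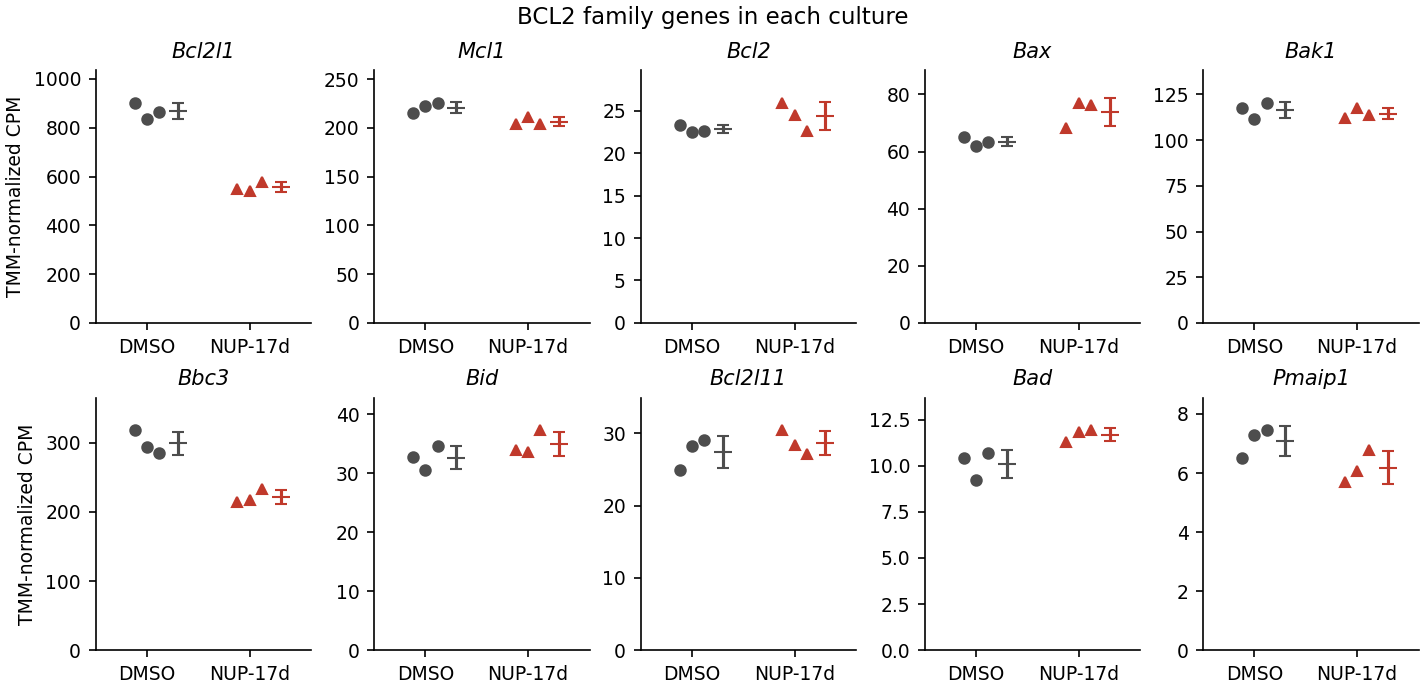
TMM-normalized CPM (vertical axes, starting at 0) of each BCL2 family gene in the 3 DMSO cultures (circles) and 3 NUP-17d cultures (triangles), with the mean and SD beside the points. Bcl2l1 and Bbc3 are lower in every NUP-17d culture than in any DMSO culture and Bax is higher in every one, whereas the points of Bcl2, Bak1, Bid, Bcl2l11 and Pmaip1 overlap.

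Bcl2l1, whose protein BCL-XL restrains BAX and BAK, fell more than any other member. Its CPM was 901, 836 and 866 in the DMSO cultures and 548, 539 and 579 in the NUP-17d cultures. Every NUP-17d culture lay far below every DMSO culture, and the gap was larger than the spread within either group. The mean went from 867 ± 32.5 to 555 ± 20.7 CPM (SD, n = 3), a fall of 36.0%. The log2 fold change was -0.64 (SE 0.037, 95% interval -0.72 to -0.57, adjusted p = 1.83e-13 by edgeR). Only 2.56% of tested genes had a lower log2 fold change. Bcl2l1 passed the test in the same direction under all 14 alternative settings, with log2 values from -0.67 to -0.37, including scaling by library totals alone (-0.38).

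Bcl2l1 lies on the minus strand of chr2:152758732-152833803 (GRCm38, the mm10 build that the submitters name). Windows before 3 of its RefSeq start sites were searched, and none reaches the outer end of the gene. Of the 3, only the 250 bases before the innermost start site held a motif of a factor described below. They are shown because RNA of the erythroid factor Gata1 was lower too with TMM, though not past the threshold with library totals alone, with the match to the GATA motif (GATA preceded by A or T and followed by A or G, on either strand) in capitals, 41 bases before the start site, on the minus strand of chr2:152828490-152828739.
Bcl2l1: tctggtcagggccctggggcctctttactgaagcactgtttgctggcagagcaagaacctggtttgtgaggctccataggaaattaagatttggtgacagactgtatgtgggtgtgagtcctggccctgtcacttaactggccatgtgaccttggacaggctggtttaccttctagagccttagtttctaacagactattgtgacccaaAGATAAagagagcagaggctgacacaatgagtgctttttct
Such a match is common, since 26.5% of all 32851 RefSeq windows of this length held one. Among the 15 windows of 9 members, GATA matches were found for Bcl2l1 and Bid, and Bid did not pass the test. The STAT motif (TTCNNNGAA) was in 7.02% of all windows and in no window of a member, but the windows do not cover every start site. A match of letters is a description and does not show that a factor binds there.

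Mcl1, a short-lived survival protein that binds BIM and NOXA tightly, differed little. It stood at 215, 222 and 225 CPM with DMSO and at 204, 212 and 204 CPM with NUP-17d. The groups did not overlap, but the highest NUP-17d culture came within a few CPM of the lowest DMSO culture. The mean moved from 221 ± 5.21 to 206 ± 4.63 CPM, with a log2 fold change of -0.10 (SE 0.035, adjusted p = 0.0284 by edgeR). The call was kept in 2 of 6 fits that left out 1 culture, and the direction turned to a log2 fold change of 0.17 when libraries were scaled by their totals alone. Bcl2, the survival gene of lymphocytes and early progenitors, had 23.4, 22.5 and 22.6 CPM with DMSO and 25.9, 24.6 and 22.6 CPM with NUP-17d. The groups overlapped, and the log2 fold change of 0.09 had a 95% interval of -0.03 to 0.22 (adjusted p = 0.244 by edgeR). Of the 3 survival genes, Bcl2l1 was thus the only one with a fall that held in every fit.

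Bbc3, whose protein PUMA binds all survival members and is induced by p53 and by FOXO3 in many cells, was the death member that fell. Its CPM was 318, 294 and 286 in the DMSO cultures and 215, 217 and 233 in the NUP-17d cultures. All NUP-17d cultures lay below all DMSO cultures with a wide gap. The mean went from 299 ± 16.8 to 222 ± 9.80 CPM, with a log2 fold change of -0.43 (SE 0.041, 95% interval -0.52 to -0.35, adjusted p = 2.13e-09 by edgeR). It passed under all 14 alternatives, with log2 values from -0.47 to -0.16. A lower log2 fold change was seen for 5.48% of tested genes.

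Bbc3 lies on the plus strand of chr7:16308398-16318334 (GRCm38). One of its 3 RefSeq windows, chr7:16310011-16310260, is shown because it held the FoxO motif (GTAAACA on either strand, in capitals) 167 bases before the start site, and Foxo3 RNA was lower too.
Bbc3: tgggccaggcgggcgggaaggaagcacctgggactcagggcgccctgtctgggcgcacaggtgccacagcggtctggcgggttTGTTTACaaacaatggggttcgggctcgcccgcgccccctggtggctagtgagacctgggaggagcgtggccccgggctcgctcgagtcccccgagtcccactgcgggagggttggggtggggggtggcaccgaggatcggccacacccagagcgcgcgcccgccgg
The motif was present in 3.17% of all windows and, among members, in Bbc3 and Bcl2l11. The Bcl2l11 window holds it 227 bases before the start site, and Bcl2l11 did not pass the test. Whether Foxo3 bears on Bbc3 in these cultures was not tested.

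The other BH3-only genes differed little or not measurably with TMM. Bcl2l11 (BIM), which links loss of growth factor signals to death, had 24.9, 28.3 and 29.1 CPM with DMSO and 30.4, 28.3 and 27.2 CPM with NUP-17d. The groups overlapped in part, with a log2 fold change of 0.06 (SE 0.061, adjusted p = 0.458 by edgeR). With library totals alone the log2 fold change of Bcl2l11 was 0.33. Pmaip1 (NOXA), which engages MCL1, had 6.51, 7.30 and 7.44 CPM with DMSO and 5.70, 6.05 and 6.79 CPM with NUP-17d. Here too the ranges overlapped, and its 95% interval of -0.43 to 0.03 around a log2 fold change of -0.20 (adjusted p = 0.162 by edgeR) was the widest of the 10, with 118 to 148 reads per culture behind it. Bid, which death receptors activate through caspase-8, had 32.8, 30.6 and 34.5 CPM with DMSO and 34.0, 33.6 and 37.3 CPM with NUP-17d, again with overlap (log2 fold change 0.10, SE 0.055, adjusted p = 0.174 by edgeR).

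Bad, whose protein is kept inactive by AKT and PIM kinases and otherwise binds BCL-XL, lay at the threshold. Its CPM was 10.4, 9.24 and 10.7 with DMSO and 11.3, 11.8 and 11.9 with NUP-17d. The groups did not overlap but were less than 1 CPM apart at their closest. The log2 fold change was 0.21 (SE 0.083, adjusted p = 0.0498 by edgeR), the call was kept in 1 of 6 fits that left out 1 culture, and DESeq2 gave an adjusted p of 0.206.

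Of the pore-forming genes, Bax rose and Bak1 did not pass the test. The CPM of Bax was 65.0, 61.9 and 63.5 in the DMSO cultures and 68.3, 76.9 and 76.4 in the NUP-17d cultures. All NUP-17d cultures were above all DMSO cultures, with NUP-17d culture 1 nearest to them. The mean went from 63.5 ± 1.52 to 73.9 ± 4.86 CPM, with a log2 fold change of 0.22 (SE 0.046, 95% interval 0.12 to 0.31, adjusted p = 0.000434 by edgeR). Bax passed under all 14 alternatives, with log2 values from 0.19 to 0.49. Of the tested genes, 83.8% had a lower log2 fold change than Bax, so many genes rose more. Bak1 had 118, 111 and 120 CPM with DMSO and 112, 118 and 114 CPM with NUP-17d, values that overlapped throughout. Its log2 fold change of -0.02 had a 95% interval of -0.10 to 0.06, which lies below that of Bax, and it was 0.24 with library totals alone.

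Bax lies on the minus strand of chr7:45461695-45466903 (GRCm38). The 250 bases before its start site, on the minus strand of chr7:45466899-45467148, are shown because Bax is a p53 target and this window was the only one of the 15 with a p53 half-site, given in capitals and beginning 201 bases before the start.
Bax: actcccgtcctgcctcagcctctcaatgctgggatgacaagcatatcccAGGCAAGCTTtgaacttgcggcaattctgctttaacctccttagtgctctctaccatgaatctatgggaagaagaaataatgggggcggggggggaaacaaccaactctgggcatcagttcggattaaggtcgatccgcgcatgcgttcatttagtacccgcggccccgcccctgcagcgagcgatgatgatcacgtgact
Half-sites of this form were in 7.13% of all windows. Bbc3, also a p53 target, had none in its 3 windows, which do not reach the outer end of the gene.

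The choice of scaling shifted all genes together. Without the correction for composition the median log2 fold change of all tested genes moved from 0.01 to 0.28, and 74.1% of genes passed, 68.7% higher and 5.34% lower. On that scale 9 of the 10 members passed, 7 higher and 2 lower, and Mcl1, Pmaip1 and Bak1 changed direction. Bcl2l1 and Bbc3 were the 2 that remained lower. Relative to the median of all tested genes the members took almost the same places under both scalings. Bcl2l1 lay 0.66 log2 units below that median under either, Bbc3 0.45 below and Mcl1 0.11 below. Bax lay 0.21 above it and Bad 0.20 above it under either.

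**Figure D3:**
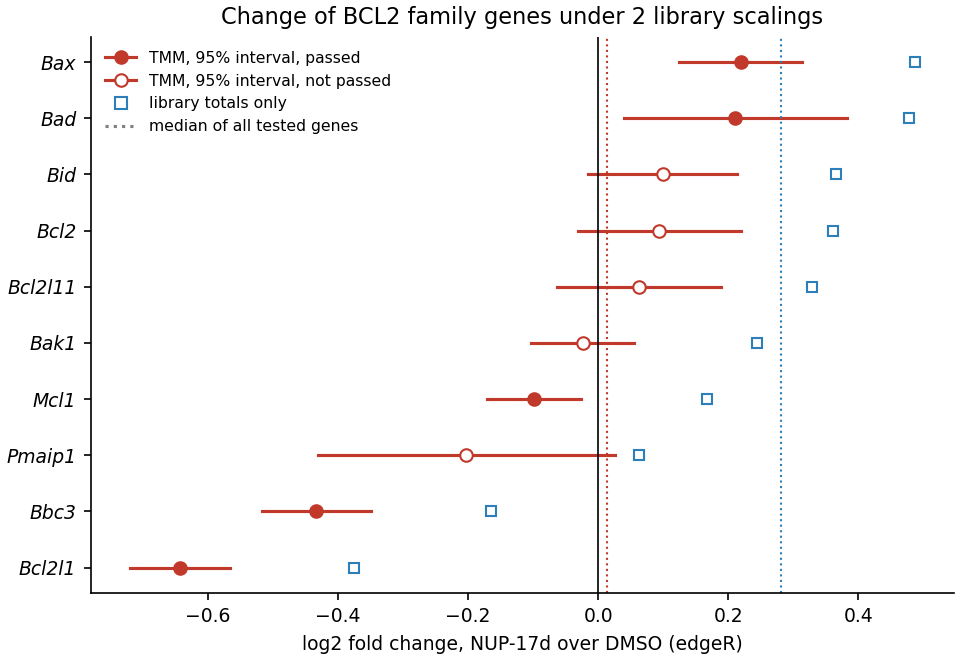
Log2 fold change of each BCL2 family gene, NUP-17d over DMSO, from edgeR with TMM (circles with 95% intervals, filled where the adjusted p passed) and with library totals only (squares), with dotted lines at the median of all tested genes on each scale. The squares lie to the right of the circles by about the distance between the dotted lines, Bcl2l1 and Bbc3 are below 0 on both scales, and Bax is above 0 on both.

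Ratios between members within a culture do not depend on the scaling. They were taken on the FPKM scale for pairs whose proteins meet and are given without a test, since the members were chosen with earlier results known. There was 1 Bax transcript for 4.56 ± 0.0502 Bcl2l1 transcripts per length with DMSO and for 2.52 ± 0.167 with NUP-17d. The ratio of Bax to Bcl2l1 was 0.217, 0.222 and 0.219 in the DMSO cultures and 0.373, 0.426 and 0.394 in the NUP-17d cultures. The DMSO cultures were nearly equal, and the lowest NUP-17d culture was well above them. The ratio thus rose 1.81-fold, from changes of both genes in opposite directions.

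Other ratios against Bcl2l1 moved the same way. They share that denominator, and only 2.56% of tested genes had a lower log2 fold change than Bcl2l1. A ratio to Bcl2l1 would thus rise for most tested genes, so these rises add little to its fall. The ratio of Bad to Bcl2l1 went from 0.0291 ± 0.00141 to 0.0513 ± 0.00176, and that of Bcl2l11 to Bcl2l1 from 0.0165 ± 0.00167 to 0.0267 ± 0.00221. Bcl2l1 exceeded Mcl1 by 5.46-fold ± 0.298 with DMSO and by 3.75-fold ± 0.205 with NUP-17d. In none of these pairs did the groups overlap. The ratio of Bbc3 to Mcl1 moved in the opposite sense, from 2.42 ± 0.194 to 1.92 ± 0.110, without overlap. That of Pmaip1 to Mcl1 was 0.0424 ± 0.00201 and 0.0397 ± 0.00385, and there the groups overlapped.

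**Figure D4:**
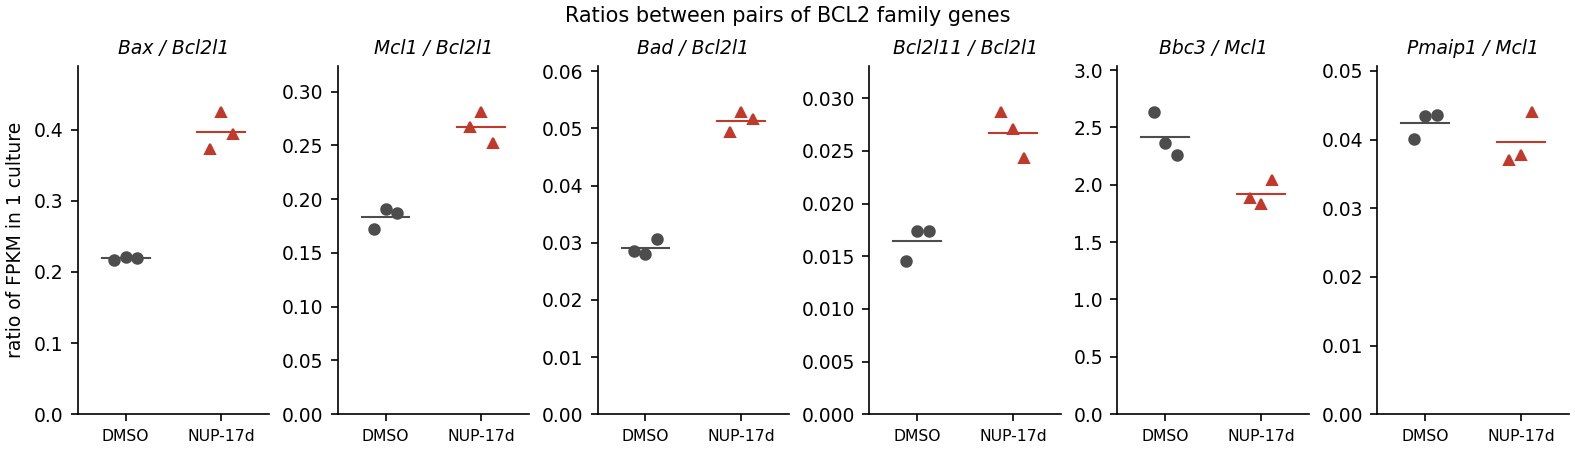
Ratio of the FPKM of a pair of BCL2 family genes within each culture (vertical axes, starting at 0), with circles for DMSO, triangles for NUP-17d and lines at the means. The 4 ratios against Bcl2l1, which share that denominator, are higher in every NUP-17d culture. Bbc3 to Mcl1 is lower in every one, and Pmaip1 to Mcl1 overlaps.

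Bcl2l1 made up 83.8% ± 0.687 of the summed FPKM of the 3 survival genes with DMSO and 78.0% ± 0.954 with NUP-17d. Mcl1 took 15.4% ± 0.697 and then 20.8% ± 0.884, and Bcl2 0.775% ± 0.0162 and then 1.20% ± 0.115. Bcl2l1 therefore remained the main survival transcript in every culture. The summed FPKM of the 3 survival genes over that of the 7 death genes was 1.26, 1.27 and 1.29 with DMSO and 0.984, 0.935 and 0.954 with NUP-17d. The sum of these 3 genes exceeded that of the 7 in each DMSO culture and was slightly below it in each NUP-17d culture. Bbc3, the largest death member, had fallen too. Bcl2l1 made up most of the survival sum, so its fall weighs heavily in this ratio. Further family genes, such as the survival gene Bcl2l2, are not in the sums. Which sum is larger depends on the genes chosen, and RNA sums do not give the balance of proteins.

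Gene lengths did not separate the groups. The tables list a gene length weighted by the transcripts seen, and it varied between cultures for Bcl2, Bcl2l1, Bcl2l11 and Bad, with overlapping groups for all 4. For Bcl2l1 it ranged from 2520 to 2537 bases over the 6 cultures. The other 6 members had 1 listed length, so no change in their transcripts could be seen here.

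Of the 15 further family genes listed, 10 were tested and 4 passed, 2 in each direction, against 35.3% of all tested genes. Bnip3l (NIX), which clears mitochondria from maturing red cells, followed Bcl2l1 closely. It stood at 609, 565 and 584 CPM with DMSO and at 371, 368 and 391 CPM with NUP-17d, without overlap, with a log2 fold change of -0.64 (SE 0.037, adjusted p = 1.51e-13 by edgeR). Its relative Bnip3, a mitophagy receptor induced by low oxygen, went the other way, from 14.9 ± 0.394 to 24.1 ± 2.28 CPM (log2 fold change 0.69, SE 0.071, adjusted p = 1.37e-08 by edgeR). Bnip3 was also the largest rise among the family genes tested. Bcl2l2 (BCL-W), a further survival gene, rose from 16.7 ± 0.202 to 19.7 ± 0.353 CPM (log2 fold change 0.24, adjusted p = 0.00331 by edgeR). The rarely detected Bcl2l15 fell from 1.24 ± 0.451 to 0.529 ± 0.0580 CPM (log2 fold change -1.22, adjusted p = 0.00334 by edgeR).

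Bcl2l13, Bcl2l12, Bmf, Bik, Bcl2a1b and Bcl2a1d did not pass the test. Their log2 fold changes were 0.05, 0.08, -0.10, -0.30, -0.03 and -0.40, in that order. Bcl2a1a, Bok, Hrk and Bcl2l14 were too scarce to test, and Bcl2l10 was in no table. The Bcl2a1 copies are nearly identical, so the division of reads among them is uncertain. Bnip3l, Tmcc2 and Mau2 were among the 5 genes whose log2 CPM followed that of Bcl2l1 most closely over the 6 cultures, with Pearson coefficients of 0.9997 to 0.9999. The 6 cultures fall into 2 groups, so this measure mostly records the same difference between groups, and 1094 of the 8455 genes compared reached 0.95.

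Downstream of the family, 10 of 29 tested death pathway genes (a list that includes inhibitors of death) were lower and 0 were higher. On library totals alone, however, 24 were higher and 0 lower. Among all tested genes 35.3% passed with TMM, 18.9% lower and 16.4% higher. With library totals alone 5.34% of all tested genes were lower and 68.7% higher. Among the apoptosome and caspases, Casp2 (-0.12, adjusted p = 0.0486 by edgeR) and Cycs, which encodes cytochrome c (-0.11, adjusted p = 0.0263 by edgeR), passed. Apaf1 and Casp9, which together form the apoptosome, had log2 fold changes of 0.07 and 0.07 and did not pass, nor did Casp8, which cleaves BID (-0.04). Among caspase inhibitors and their antagonists, Birc2 (-0.26), Diablo (-0.19), Birc5 (-0.18) and Htra2 (-0.17) were lower. Among the other genes of the list, Vdac3 (-0.22), Tmbim6 (-0.18), Bag1 (-0.17) and Dnm1l (-0.12) were lower. Vdac2, a partner of BAK, had 0.04 and did not pass. All 10 of these falls turned to values of 0.01 to 0.16 with library totals alone. The largest log2 fold change of the 29 was that of Endog, a mitochondrial nuclease of low level (1.79 ± 0.267 and 2.50 ± 0.217 CPM), at 0.47, which did not pass with TMM (adjusted p = 0.0546 by edgeR) and did with library totals alone (0.74).

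Of 16 genes for kinases and turnover factors of BCL2 proteins, 4 were lower and 0 higher with TMM, whereas with library totals alone 3 were lower and 12 higher. The shares of all tested genes were 18.9% lower and 16.4% higher with TMM. They were 5.34% and 68.7% with library totals alone. Pim1, a STAT5-induced kinase that phosphorylates BAD, stood at 1323, 1251 and 1224 CPM with DMSO and at 801, 782 and 815 CPM with NUP-17d. These groups were far apart (log2 fold change -0.66, adjusted p = 6.8e-14 by edgeR). Btrc, a ubiquitin ligase subunit, had -0.62 (adjusted p = 3.53e-12 by edgeR), Pim2 had -0.53 (adjusted p = 5.02e-07 by edgeR) and Akt2 had -0.14 (adjusted p = 0.00343 by edgeR), which became 0.13 with library totals alone. Akt1 (0.08) and Gsk3b (0.10), which act on BAD or MCL1, did not pass.

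Among 12 tested transcription factors of family genes, 5 were lower and 2 higher with TMM, against 18.9% and 16.4% of all tested genes. With library totals alone 1 was lower and 8 higher, against 5.34% and 68.7%. Foxo3, an activator of Bcl2l11 and Bbc3, had 358 ± 26.7 CPM with DMSO and 274 ± 18.8 with NUP-17d (log2 fold change -0.39, adjusted p = 2.28e-07 by edgeR). Its log2 fold change was -0.12 with library totals alone. Gata1, the master erythroid factor, had -0.33 (adjusted p = 1.65e-08 by edgeR, but -0.07 and an adjusted p of 0.0842 with library totals alone) and Atf4 had -0.26 (adjusted p = 7.08e-07 by edgeR, 0.0082 with library totals alone). Trp53, which encodes p53, had -0.25 (adjusted p = 4.43e-06 by edgeR), which became 0.02 with library totals alone. The 2 higher factors were Stat5b, which carries the EPO signal (0.22, adjusted p = 3.06e-05 by edgeR), and Rela (0.21, adjusted p = 5.19e-05 by edgeR), and both were higher with library totals alone as well (0.49 and 0.48). Of 20 p53 targets outside the 10 members, 9 were lower and 1 was higher with TMM, against 18.9% and 16.4% of all tested genes. With library totals alone 2 were lower and 10 higher, against 5.34% and 68.7%. The lower ones with TMM included Btg2 (-0.95), Sesn1 (-0.50) and Gdf15 (-0.29), and the higher one was the death receptor gene Tnfrsf10b (0.33). Cdkn1a, the p53 target that stops the cell cycle, had -0.04 and did not pass.

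Cell type markers differed between the groups as well. The summed FPKM of the 14 erythroid markers, led by Hba-a1, Hbb-bs and Hba-a2, was 320628 to 355066 with DMSO and 207568 to 230124 with NUP-17d, and 12 of them were still lower with library totals alone. The log2 fold changes of that list ran from -1.08 to -0.24 with a median of -0.70, and those of Bcl2l1 and Bnip3l were -0.64. FPKM has no correction for composition, and on that scale 75.3% of all tested genes did not overlap between the groups. The summed FPKM was higher in all NUP-17d cultures than in all DMSO cultures for 5 lists. They were the markers of neutrophils (led by S100a9, Mpo and Ngp, 3132 to 3186 and 3837 to 4037), macrophages (Lyz2, Cd68 and Csf1r, 2196 to 2461 and 3092 to 3400), megakaryocytes (Pf4, Itga2b and Ppbp, 267 to 313 and 380 to 404), stem or progenitor cells (Ly6a, Cd34 and Kit, 109 to 122 and 129 to 133) and lymphoid cells, which were scarce (led by Cd79b and Cd79a, 10.2 to 10.7 and 10.9 to 11.4). With TMM, 2 of 10 neutrophil, 4 of 10 macrophage, 5 of 8 megakaryocyte and 3 of 7 stem or progenitor markers were higher, and 1, 2, 1 and 1 were lower. Mast cell or basophil markers overlapped (Prss34, Mcpt8 and Cpa3, 161 to 181 and 173 to 177), with 1 of 6 higher and 2 lower. Of the lymphoid markers 2 of 6 were lower, and Igkc was in no table. Among all tested genes 16.4% were higher and 18.9% lower with TMM. Median log2 fold changes with TMM were 0.01 for neutrophil, 0.03 for macrophage and 0.15 for megakaryocyte markers. They were 0.06 for stem or progenitor and -0.16 for lymphoid markers. The part of cell type makeup in the values of Bcl2l1, Bbc3 and Bax was not tested.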

How the data were processed

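Bulk RNA-seq was available for 3 DMSO and 3 NUP-17d cultures, grouped by the treatment in the sample labels. The dose is that of the study's RNA-Seq panel. The authors deposited 1 table per culture with an expected count per gene (an estimate of its reads, not normalized, 27.8% to 28.5% of the values not whole) and an FPKM value, scaled by the authors for gene length and library total. The labels describe poly(A) selection, random priming and DNBseq sequencing, while the study's methods name a stranded kit on another instrument, so strand is unknown. The submitters' notes name mm10. The aligner and counting program are not given in the sources used here. A gene missing from a table was taken as 0.

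Expected counts were rounded and fitted with edgeR 4.0.16 in R 4.3.3 (filterByExpr, TMM, quasi-likelihood test over all 12306 genes kept, Benjamini-Hochberg adjustment, threshold 0.05). The common coefficient of variation was 2.95%. CPM were TMM-normalized. Values are mean ± SD. An exact permutation test of 3 against 3 cannot go below p = 0.1 and was not used. Promoter windows are those of RefSeq on GRCm38.p6, found for 9 members. For Bcl2l1, Bbc3 and Mcl1 no window reaches the outer end of the gene. The alternatives were DESeq2 1.42.0, limma 3.58.1 on log2 FPKM with a pseudocount of 1 or 0.1, other scalings, no filter, a replicate block, and fits without each culture in turn. The edgeR and DESeq2 fits were tried on simulated counts with balanced rises and falls and no shift in composition, which does not test the scaling. The named genes are the 10 members, every other family gene, and of each pathway list up to 4 called genes with the largest absolute log2 fold change plus up to 2 in direct contact with a member, the 3 most abundant genes of each marker list, and the 5 genes most correlated with the member of lowest p. Some genes that this rule names are not reported here. Apaf1, Casp9, Endog, Stat5b, Rela and Cdkn1a were named after their values were seen. The members and lists were chosen with earlier results of these data known.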

Additional observations from a re-analysis of the deposited data

How the results depend on the processing

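Bcl2l1, Bbc3 and Bax kept their direction and passed under all 14 alternatives, and the 6 ratios between pairs and the 3 shares moved by less than the larger of the groups' SDs under each of their 7 alternatives. The log2 difference of the Bax to Bcl2l1 ratio ranged from 0.81 to 0.90 over these, more than the small DMSO SD. For the ratio of survival to death sums the same alternatives, chosen after seeing the data, gave log2 differences of -0.43 to -0.40. Scaling carried most of the dependence. With library totals only, limma on log2(FPKM + 0.1) and limma on log2(FPKM + 1), in that order, 9115, 9038 and 9059 genes passed (8458, 8403 and 8423 higher), 9 members passed under each (7 higher, 2 lower), and 24, 25 and 24 death pathway genes passed, all of them higher. In the same order Mcl1 had log2 fold changes of 0.17, 0.17 and 0.17, Pmaip1 0.063, 0.071 and 0.052, and Bak1 0.24, 0.25 and 0.24, each against a negative value with TMM. These scales leave out the correction for composition. DESeq2 called 3153 genes and 6 death pathway genes. Bcl2l11 ranged from -0.0020 (without DMSO culture 1) to 0.11 over the fits that left out 1 culture. Leaving out 1 culture gave 3 to 4 members called, 3713 to 4008 genes in all and 7 to 10 death pathway genes. Members called fell to 3 without DMSO culture 2, NUP-17d culture 1 or NUP-17d culture 3. The other family genes numbered 4 to 6 throughout.

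The replicate numbers do not pair the cultures: deviations of same-numbered cultures correlated at -0.03 to 0.03, and 2 of 6 cultures correlated best with their own number. With the replicate number as a block, 5 members and 4543 genes passed.

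At this depth Pmaip1, with 118 to 148 reads per culture, and Bad, with 175 to 264, are the least precisely measured members. Intervals cover the spread between cultures only.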
